A study of Mus musculus with 4 samples.

Results

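AGO2-CLASH chimeric reads were examined for 46 contractile and cytoskeletal genes in mouse mesangial cells (MMC), the contractile cells that hold the capillary loops of the kidney glomerulus together. The genes were fixed by name as the actins, actin crosslinkers, calponin-like proteins, myosins, tropomyosins, intermediate filaments, adhesion proteins, actin turnover factors, tubulins, cytolinkers and the contraction regulators Rhoa, Rock1 and Rock2 on the list. A read was taken for a gene where the deposited gene column named that gene. Of the 46 genes, 43 had at least 1 chimeric read, out of 8440 genes listed in all. They held 729 of the 36318 chimeric reads of the series, as 617 distinct sequences counted in their library. Primary MMC came from C57BL/6J mice, either wild type (WT) or carrying a CRISPR-Cas9 deletion at miR-379 (miR-379KO). All were cultures in serum-containing medium, with 2 libraries (A and B) per genotype. The sample titles and the CLASH methods name no treatment of the cells. The number of mice behind each library is not given in the sources used here. The scheme of the diabetes experiments, in male mice with or without streptozotocin injection, names CLASH as a use of their mesangial cells. Neither the age nor the diabetic state of the mice behind these libraries is given in the sources used here. The cells were cross-linked, AGO2 was immunoprecipitated, and RNA ends held together in the complex were ligated, so a chimeric read joins part of a miRNA to part of an RNA next to it. The study calls AGO2 samples of the same letters independent, in sequencing made without the ligation, but nothing says that A and B here came from separate cultures or mice. The p-values therefore measure only the spread between these libraries, which may be technical.

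Mesangial cells contract through actin filaments pulled by non-muscle and smooth muscle myosin, anchored to the matrix by integrins, and they raise smooth muscle actin when activated. AGO2 carries a miRNA whose bases 2 to 8, the seed, usually start the pairing with a target, and pairing of the 3′ part of the miRNA can add to it or stand in for it. The let-7 miRNAs share 1 seed and are abundant in differentiated cells, and family members differ from each other mainly in their 3′ part.

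The sequences of the let-7 miRNAs and their sites are shown first, because the let-7 family held 133 of the 215 reads in which the miRNA and the target were both aligned in sense and the miRNA alignment was at least 16 nt long (called long sense reads from here on). The mature sequences are those of the RefSeq table for GRCm38.p6, written 5′ to 3′ with the seed in capitals, and each was identical to the mature sequence in the deposited alignments.
let-7a-5p: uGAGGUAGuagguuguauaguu
let-7b-5p: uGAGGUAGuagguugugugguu
let-7c-5p: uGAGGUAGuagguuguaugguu
let-7d-5p: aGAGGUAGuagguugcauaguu
let-7e-5p: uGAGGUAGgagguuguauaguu
let-7f-5p: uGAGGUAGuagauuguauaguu
let-7g-5p: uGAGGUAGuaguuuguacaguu
All 7 have the seed GAGGUAG, and the differences lie outside it.

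The 13 target sites of let-7 found in at least 2 libraries are given next, 5′ to 3′ in the sense of the transcript, with capitals for the longest unbroken stretch of Watson-Crick pairs with the let-7 member that had the most reads there. The 3 actin sites end in the same 9 bases, whereas the Actn1 and Flna sites have capitals elsewhere.
Acta2: cgagatctcaccgACTACCTCA
Actb: cgggacctgacagACTACCTCA
Actg1: cgggacctgacagACTACCTCA
Actn1: ccCTATACAACCatcacgcctca
Flna: gcccatgAACCTACctacttta
Itgb1: ccctattgatctCTACTACCTta
Macf1: actcattcttcttCTACCTCc
Itga5: ccagtgggcacctgCTACCTCt
Cald1: cattgtacaaactcaTACCTCA
Tuba1b: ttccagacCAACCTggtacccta
Tuba1c: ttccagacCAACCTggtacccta
Plec: gagaatacagCCTACTtccagt
Vim: gtCCACACgcacctacagtctgg

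On GRCm38 the Acta2 site lies at chr19:34246120-34246141 (minus strand), in exon 6 of 9 of the listed transcript, in the coding sequence. The Actb site lies at chr5:142904578-142904599 (minus strand), in exon 4 of 6, and the Actg1 site at chr11:120347145-120347166 (minus strand), also in exon 4 of 6, both in the coding sequence. The Actn1 site lies at chr12:80174485-80174507 (minus strand), in exon 15 of 21, and the Flna site at chrX:74238131-74238152 (minus strand), in exon 15 of 47, again in coding sequence. The Itgb1 site is at chr8:128713254-128713276 (plus strand, exon 5 of 16), the Macf1 site at chr4:123509883-123509903 (minus strand, exon 14 of 98), the Itga5 site at chr15:103357240-103357261 (minus strand, exon 4 of 30) and the Tuba1b site at chr15:98932153-98932175 (minus strand, exon 4 of 4), all in coding sequence. Also in coding sequence are the Tuba1c site at chr15:99037422-99037444 (plus strand, exon 4 of 4), the Vim site at chr2:13574530-13574552 (plus strand, exon 1 of 9) and the Plec site, which runs across the junction of exons 19 and 20 of 33 between chr15:76187762-76187999 (minus strand). Among these 13 sites, the Cald1 site at chr6:34774708-34774729 (plus strand, exon 15 of 15) is the one in a 3′-UTR.

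2 chimeric reads show both ways of pairing, with the miRNA segment in capitals and the target segment after it. The Actn1 read was sequenced 5 times in WT B, the highest copy number among these genes together with a let-7c-5p read listed with Tuba1b and Tuba1c, and the Actb read 3 times in WT B.
Actn1 with let-7a-5p: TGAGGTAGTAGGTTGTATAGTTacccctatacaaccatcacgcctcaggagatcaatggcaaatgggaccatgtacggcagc
Actb with let-7b-5p: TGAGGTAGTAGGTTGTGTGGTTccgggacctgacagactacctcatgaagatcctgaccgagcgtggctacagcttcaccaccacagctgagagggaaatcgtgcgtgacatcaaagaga
In both reads the whole mature miRNA of 22 nt was joined at its 3′ end to the target, with the site near the junction.

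Values per library are given throughout in a fixed library order, which is WT A, then WT B, then miR-379KO A, then miR-379KO B. The libraries held 16324, 7192, 6326 and 6476 chimeric reads, so the smallest share taken as detectable, 3 reads, was 1.84, 4.17, 4.74 and 4.63 per 10000. miR-379 itself was listed with 3, 1, 0 and 0 reads, and a count of 0 allows up to 3 reads. No read of the 46 genes was listed with miR-379 in any library. WT A stood apart in these genes: long sense reads made up 14.3% of their reads there against 40.1%, 35.4% and 36.9% in the other libraries, and results that rest on it are given per library. Of 10 mesangial and contractile markers 6 had reads, led by Acta2 with 86, while Pdgfrb had 4, Des had 2 and Itga8, Thy1, Gata3 and Pdgfra had 0. The 6 endothelial, 6 tubular and 5 leukocyte markers all had 0 reads, and 6 podocyte markers summed to 6 reads, with 2, 1, 0 and 3. The 5 fibroblast and matrix markers summed to 344, 108, 82 and 114 reads in library order, and Dcn among them had 0. Chimeric reads count captured duplexes, so fewer pairings and less RNA of a gene cannot be told apart here.

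The contractile and cytoskeletal genes took a similar part of the chimeric reads in both genotypes, and the spread was wide within WT. Their share was 158 per 10000 (95% Clopper-Pearson interval 139 to 178) for WT A and 274 (237 to 314) for WT B. The miR-379KO A share was 228 (192 to 267) and the miR-379KO B share 201 (168 to 238). Both miR-379KO libraries fell between the 2 WT libraries. The mean was 216 ± 81.9 (SD, n = 2) per 10000 in WT and 214 ± 19.0 (SD, n = 2) in miR-379KO. The difference of 1.80 per 10000 gave p = 1 in the exact two-sided permutation test, whose smallest possible p with these libraries is 0.333. With reads summed by genotype, 455 of 23516 against 274 of 12802, Fisher's exact test gave p = 0.183, a test that sets these particular libraries against each other, not the genotypes. The intervals cover counting error only, since reads without molecular identifiers are not independent molecules. Without WT B the difference was -56.1 per 10000, and without WT A it was 59.7.

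Reads were spread thinly over the list. Acta2, Myh9 and Flna together held 222 reads, 20 genes reached 10 reads over the 4 libraries, 23 genes had 1 to 9 reads, and Myl12b, Tubb6 and Rock1 had none. A gene with no read may have up to 3 reads in each library at this depth. Of the 617 distinct reads, 524 were sequenced 1 time, and none of them occurred in more than 1 library.

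The actins form the thin filament, with Acta2 as the smooth muscle isoform that marks activated mesangial cells and Actb and Actg1 as the cytoplasmic isoforms. They held 137 reads, the most of any group on the list. Acta2 had 28, 20, 21 and 17 reads. Per 10000 chimeric reads this was 17.2, 27.8, 33.2 and 26.3, so the lowest value was in WT A and the genotypes overlapped. Actb had 7, 12, 8 and 10 reads or 4.29, 16.7, 12.6 and 15.4 per 10000, again lowest in WT A. Actg1 had 7, 3, 7 and 4 reads, or 4.29, 4.17, 11.1 and 6.18 per 10000, and its miR-379KO values were both above its WT values. Of the 18 distinct Actg1 reads, 15 were also listed with another gene, most often with the predicted genes Gm12715 (14 reads) and Gm8399 (13 reads), so its counts cannot be assigned to Actg1 alone. For Actb 6 of 29 distinct reads were listed with another gene and for Acta2 1 of 72.

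Long sense reads of the actins were mostly let-7 reads, and every one of these lay at the actin site shown above. Acta2 had 2, 10, 6 and 3 such let-7 reads in library order. Actb had 2, 8, 7 and 3. Actg1 had 1, 2, 4 and 4. Reads listed with each of the 3 genes were therefore found at the site in each of the 4 libraries. They came to 47 reads of 36 distinct sequences when a read listed with more than 1 actin was counted a single time. Those listed with Actg1 cannot be assigned to it alone, as for its other counts. The Actb and Actg1 sites were identical over their 22 bases, and the Acta2 site shared 18 of 22 positions with them. At the Acta2 site the reads were spread over 7 family members, with 9 reads of let-7c-5p, 4 of let-7b-5p, 3 of let-7e-5p, 2 of let-7a-5p and 1 each of let-7d-5p, let-7f-5p and let-7g-5p. At the Actb site let-7c-5p had 8 reads, let-7b-5p 5, let-7g-5p 3, let-7f-5p 2, and let-7a-5p and let-7d-5p 1 each. Bases 1 to 9 of let-7c-5p paired without a break at all 3 actin sites, which takes in the whole seed. Beyond let-7, the long sense pairs found in 2 libraries were Acta2 with miR-31-5p (0, 1, 0 and 1) and Actg1 with miR-155-5p (1, 1, 0 and 0). The other pairs of the actins were each found in 1 library. Among them, 2 miR-196a-5p reads in miR-379KO B overlapped the Actb let-7 site.

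The actin crosslinkers bundle filaments and tie them to adhesions, and they held 121 reads. Flna, the filamin that links actin to integrins, had 30, 11, 13 and 11 reads in library order, or 18.4, 15.3, 20.6 and 17.0 per 10000, a narrower range than that of Acta2 or Myh9. Actn1, the non-muscle α-actinin, had 9, 23, 6 and 4 reads, or 5.51, 32.0, 9.48 and 6.18 per 10000. Its high value was in WT B alone, and WT A lay below both miR-379KO libraries. Flnc had 8 reads and Actn4 had 6.

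Actn1 had more long sense let-7 reads than any other gene on the list, and 1 library held most of them. There were 1, 21, 5 and 2 in library order, 29 in all from 19 distinct sequences, and all lay at 1 site. Of these, 25 were let-7a-5p and 4 were let-7e-5p. None was let-7b-5p or let-7c-5p, although those members had 36 and 45 long sense reads with the list as a whole. The site has no seed match. Bases 11 to 20 of let-7a-5p and of let-7e-5p paired with it without a break, and the longest such stretch was 8 bases for let-7c-5p (bases 11 to 18), 8 for let-7f-5p (bases 13 to 20) and 6 for let-7b-5p (bases 11 to 16). These counts are a description, since the site was picked out by its reads. The Flna site had another choice of member. It had 9 reads, with 1, 3, 4 and 1 in library order, and all were let-7c-5p. Its longest stretch covered bases 8 to 14, and it was equally long for let-7a-5p, let-7b-5p and let-7d-5p, which had no read there.

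**Figure D1:**
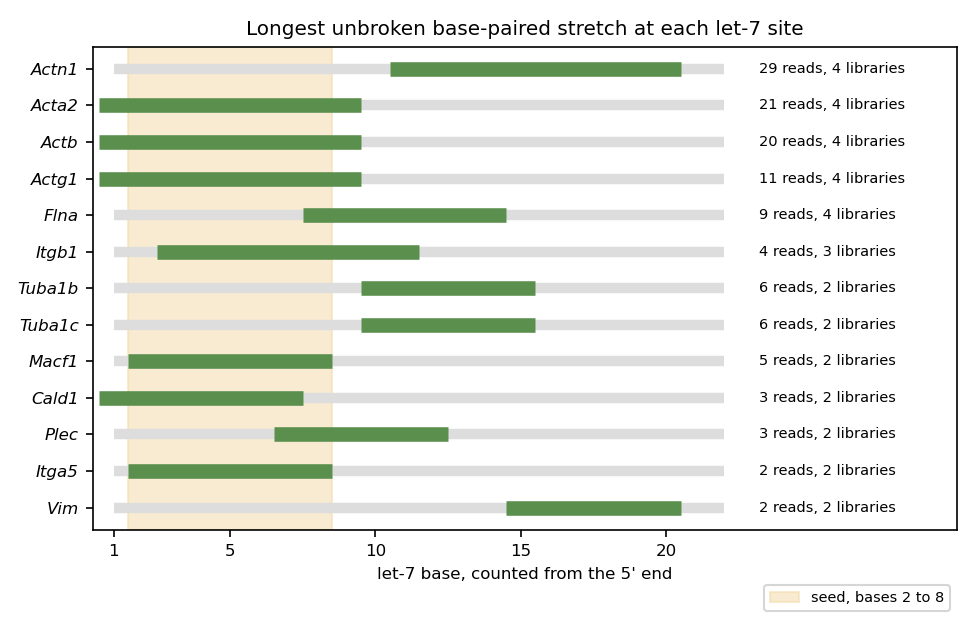
Longest unbroken Watson-Crick stretch (green) along the let-7 miRNA (x axis, base counted from the 5′ end) at the 13 let-7 sites of contractile and cytoskeletal genes found in at least 2 libraries, with the seed shaded and the reads summed over libraries at the right. The 3 actin sites, Macf1 and Itga5 pair over the whole seed, Itgb1 and Cald1 over all but 1 base of it, and Actn1 pairs from base 11 to base 20.

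**Figure D2:**
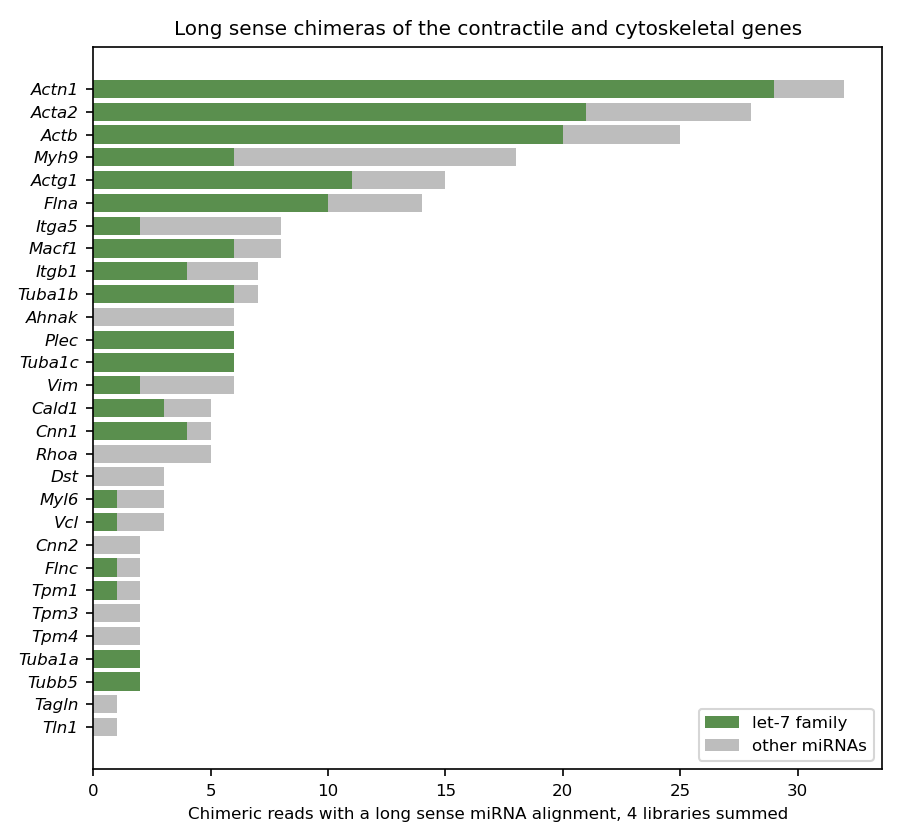
Long sense chimeric reads (x axis, 4 libraries summed) of the 29 genes that had any, divided into let-7 reads (green) and reads of other miRNAs (grey). Actn1, Acta2 and Actb have the most reads, and let-7 makes up 29 of 32, 21 of 28 and 20 of 25 of them.

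The myosins supply the force, Myh9 and Myh10 as non-muscle heavy chains, and the group held 91 reads. Myh9 had 22, 23, 7 and 19 reads in library order, or 13.5, 32.0, 11.1 and 29.3 per 10000. Its 2 WT libraries differed as much as its 2 miR-379KO libraries. Myh10 had 4, 1, 5 and 2 reads, all short or antisense, and no long sense read. The 6 long sense let-7 reads of Myh9 were all let-7c-5p and all in miR-379KO B, at 1 coding site without a seed match. Myh9 also had 3 long sense reads with miR-5126 (1, 1, 1 and 0) and 3 with miR-709 (1, 1, 0 and 1), the latter with a miRNA segment that also lies unbroken in the genome together with its neighbouring bases. Among the light chains Myl6 had 6 reads, Myl9 and Myl12a had 1 each and Myl12b had 0.

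The calponin, transgelin and caldesmon genes encode actin-binding proteins of smooth muscle type and held 65 reads. Cald1 had 6, 9, 2 and 3 reads in library order. Cnn1 had 1, 13, 2 and 2 reads, so 13 of its 18 reads came from WT B. Tagln had 4, 1, 3 and 5 reads, and its miR-379KO values of 4.74 and 7.72 per 10000 were above its WT values of 2.45 and 1.39. The WT B value rests on 1 read, under the 3 reads taken as detectable, and miR-379KO A had just 3. Of the 11 distinct Tagln reads, 8 had a miRNA segment that lies unbroken in the genome with its neighbouring bases. Cnn2 had 7 reads, Tagln2 had 6 and Cnn3 had 1. Cald1 had 3 long sense let-7 reads at the 3′-UTR site shown above, in the pattern 1, 0, 0 and 2. The 3 long sense let-7b-5p reads at a 3′-UTR site of Cnn1 were all in WT B.

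The adhesion genes join filaments to integrins in the membrane and held 98 reads. Itgb1, the β1 integrin, had 26, 3, 4 and 5 reads, or 15.9, 4.17, 6.32 and 7.72 per 10000, and its reads were concentrated in WT A. Its α partner Itga5, the fibronectin receptor chain, had 10, 3, 5 and 3 reads. Vcl, vinculin, had 7, 7, 2 and 2 reads, or 4.29, 9.73, 3.16 and 3.09 per 10000, with both WT values above both miR-379KO values. The 2 reads in each miR-379KO library are under the 3 reads taken as detectable. That limit is 4.74 and 4.63 per 10000, above the WT A value, so the order is not resolved. Tln1, talin, had 6, 3, 3 and 1 reads. Zyx had 5 reads and Pxn had 3. Itgb1 had 4 long sense let-7 reads at its site (0, 1, 1 and 2), and 21 of its 36 distinct reads had a miRNA segment that lies unbroken in the genome with its neighbouring bases.

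Of the cytolinker group, Plec, Macf1 and Dst connect actin with intermediate filaments or microtubules, and the group, which includes Ahnak, held 127 reads. Ahnak had 17, 19, 5 and 6 reads, or 10.4, 26.4, 7.90 and 9.26 per 10000, with both WT values above both miR-379KO values. Plec, plectin, had 7, 8, 9 and 8 reads, or 4.29, 11.1, 14.2 and 12.4 per 10000, with both miR-379KO values above both WT values. Dst, dystonin, had 16, 0, 8 and 6 reads, and the 0 in WT B allows up to 4.17 per 10000 beside 9.80 in WT A. Macf1 had 7, 3, 7 and 1 reads. Ahnak had 6 long sense reads and none with let-7: 3 were miR-125b-5p (2, 1, 0 and 0), and 3 were miR-690 (1, 1, 0 and 1), each miRNA at 2 sites. Macf1 had 6 long sense let-7 reads, of which 5 lay at the site shown above (0, 2, 3 and 0), all let-7b-5p and all with a seed match.

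The remaining groups were small. The tubulins, which build microtubules, held 28 reads, and Tuba1b had 3, 6, 1 and 2 reads while Tubb6 had 0. The 6 long sense let-7 reads of Tuba1b (0, 5, 1 and 0) were also listed with Tuba1c, whose sequence is the same at that site, so they count as 1 set. Vim, the intermediate filament of mesenchymal cells, had 4, 6, 6 and 2 reads, and Des had 2. The 4 tropomyosins, which lie along the actin filament, had 21 reads, from 3 for Tpm2 to 7 each for Tpm1 and Tpm3. The actin turnover factors had 8 reads and no long sense read, with 5 for Cfl1, 2 for Tmsb4x and 1 for Pfn1. Of the contraction regulators Rock2 had 8 reads, Rhoa had 5 and Rock1 had 0. All 5 Rhoa reads were long sense reads with miR-690 (4, 0, 0 and 1), at 1 site in a transcript without a coding sequence, and 2 of these 5 distinct reads were also listed with other genes.

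**Figure D3:**
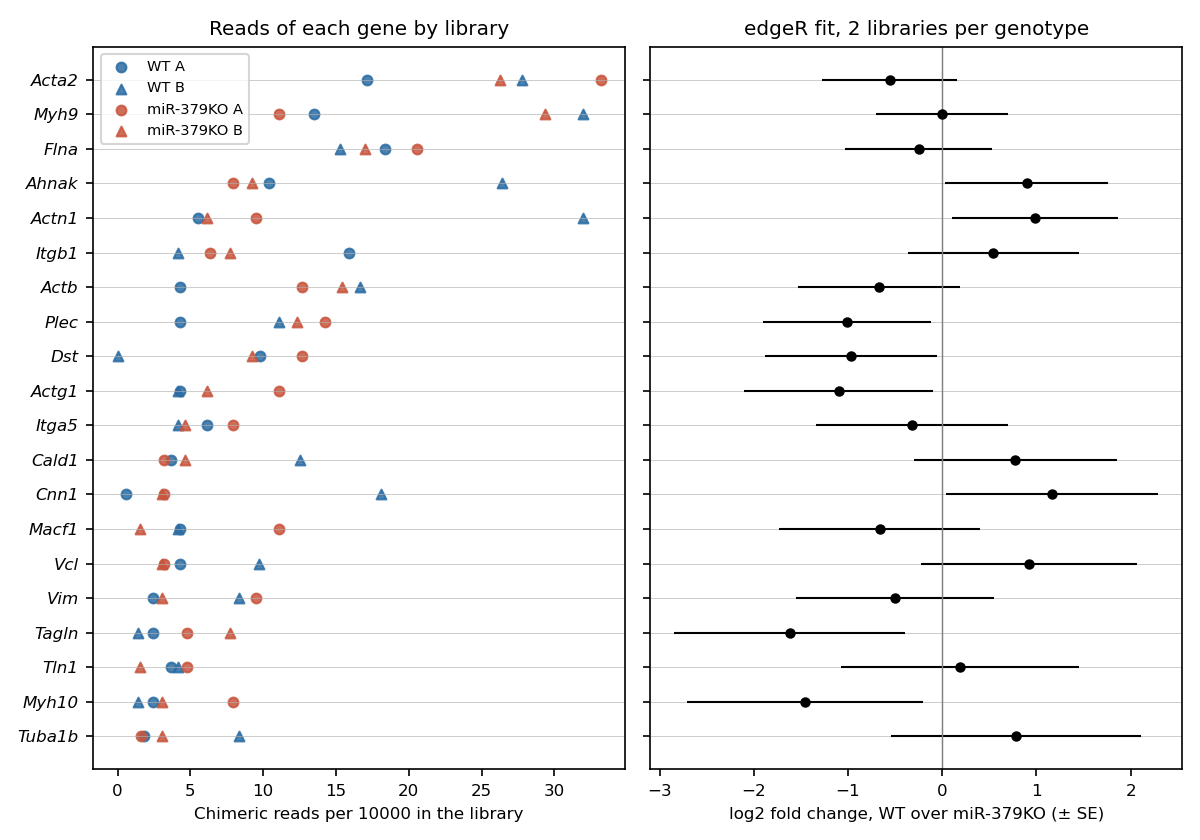
Left, chimeric reads per 10000 of the library (x axis) for the 20 genes with at least 10 reads, with WT in blue, miR-379KO in red, circles for A and triangles for B. Right, log2 fold change of WT over miR-379KO with its standard error from edgeR, 2 libraries per genotype, where values range from -1.62 for Tagln to 1.16 for Cnn1 and the libraries of 1 genotype often lie farther apart than the genotypes.

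No contractile or cytoskeletal gene passed the test between WT and miR-379KO. The edgeR quasi-likelihood fit over all genes with at least 10 reads tested 686 genes and called 0 at an adjusted p-value of 0.05, 0% of those tested, and 0 of the 20 contractile and cytoskeletal genes among them. At an unadjusted p under 0.05 there were 24 genes in all and 0 of the 20, and DESeq2 called 0 genes with 8 at an unadjusted p under 0.05. The lowest adjusted p of the 20 genes was 0.964. Of the 20, 8 log2 fold changes of WT over miR-379KO were above 0 and 12 below, with a median log2 fold change of -0.28, against a median of 0.25 and 400 of 686 above 0 over all genes tested. The direction of this split rests on single libraries and on the minimum count: without miR-379KO A 10 were above 0 and 9 below with a median of 0.20, without WT B 4 and 14 with a median of -0.63, and with no minimum count 26 and 17 with a median of 0.46, beside 5641 of 8440 above 0 over all genes. The lowest values were those of Tagln at -1.62 ± 1.22 (SE) and Myh10 at -1.45 ± 1.25, both lower in WT. The highest were those of Cnn1 at 1.16 ± 1.12 and Actn1 at 0.98 ± 0.88, and both rest on WT B: without that library the Actn1 value turned to -0.62. Acta2 had a log2 fold change of -0.56 ± 0.72. Shares of the 2 genotypes did not overlap for 6 of the 20 genes (Actg1, Ahnak, Myh10, Plec, Tagln and Vcl), 30%, beside 33.1% of the 686 genes tested. For Myh10, Tagln and Vcl at least 1 library had fewer than 3 reads. On counts simulated for these libraries at a dispersion of 0.2, edgeR called 0 of 179 genes changed by a log2 fold change of 2. It called 87 of 185 genes changed by 3. At a dispersion of 0.05 it called 44 of 175 and 146 of 190. The dispersion found here was 0.215, so changes of the smaller size were not detectable at this depth and dispersion.

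The miRNAs listed with these genes numbered 292, but most were listed through short alignments. Besides let-7c-5p (47 reads), let-7b-5p (38 reads) and let-7a-5p (34 reads), the most frequent were miR-8098 with 41 reads, miR-6937-5p with 26 and miR-207 with 15. None of the reads of miR-8098, miR-6937-5p or miR-207 was a long sense read, and the median alignment was 14, 13 and 12 nt, against 22 nt for each of the 3 let-7 miRNAs. For miR-8098, 27 of 34 distinct reads had a miRNA segment that with its neighbouring bases lies unbroken in the genome, and for miR-6937-5p this held for 1 of 22. miR-6937-5p had 2, 2, 11 and 11 reads in library order, and miR-207 had 2, 11, 1 and 1, and the genotypes were not tested on single miRNAs of these genes. miR-320-5p had 3, 4, 1 and 3 reads over 6 genes, and miR-30b-3p had 4, 6, 0 and 1 reads, all listed with Ahnak. miR-690, with 11 reads that were all long sense reads, was the most frequent miRNA of that kind outside the let-7 family. Over all 617 distinct reads, 255 had a genome-contained miRNA segment, and in 105 the miRNA was aligned in antisense while the target was in sense.

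The let-7 reads were of another kind. Of the 98 distinct long sense let-7 reads, 97 began at base 1 of the miRNA and 97 were aligned without mismatch or gap, 0 had a genome-contained segment and all 98 were listed with 1 miRNA. Of the 71 distinct long sense reads of other miRNAs, 42 were aligned without mismatch or gap and 18 were genome-contained. The let-7 reads were spread over 21 genes and 27 sites, of which 13 were found in at least 2 libraries. The Tuba1b and Tuba1c sites are both among the 13 although they hold the same reads, and reads of different let-7 miRNAs at a place were pooled into 1 site. By position 88 of the 98 let-7 reads were in a coding sequence and 7 in a 3′-UTR. Of the other 71, 36 were in a coding sequence and 24 in a 3′-UTR. Of the 27 let-7 sites 9 held a match to seed bases 2 to 7.

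The distinct reads of the contractile and cytoskeletal genes were set against those of all other genes within each library, over 13 features, with the exact paired permutation test over the 4 libraries. The smallest p that this exact test can give comes from 2 of 16 patterns of sign and was 0.203 after Benjamini-Hochberg adjustment over the 13 features, so no feature could pass the threshold, and the differences are given by their size and the number of libraries that share their direction. Both segments were in sense in 79.8%, 79.6%, 87.5% and 87.9% of the reads in library order, against 56.4%, 55.9%, 57.5% and 57.3% in other genes, a mean difference of 26.9 ± 3.94 percentage points (SD, n = 4). Among reads placed on coding transcripts, the target lay in the coding sequence in 75.3%, 82.9%, 82.2% and 77.7%, against 38.0%, 42.6%, 43.8% and 45.1%. It lay in the 3′-UTR in 22%, 16.4%, 17.8% and 19.6%, against 58.0%, 52.2%, 51.3% and 51.4%. The placed reads were 227 of 242, 140 of 147, 107 of 112 and 112 of 116 distinct reads of the list. In other genes they were only 5498 of 13955, 1829 of 4722, 1586 of 4211 and 2074 of 5562. In these features the 4 values of the contractile and cytoskeletal genes all lay outside the range of the 4 values of the other genes. When only targets in coding sequence were compared on both sides, the difference in sense alignment shrank to 7.36 points, with 3 of 4 libraries in that direction.

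The let-7 share of the long sense reads also differed in each library. It was 29.4%, 64.8%, 69.2% and 61.9% in library order, against 5.95%, 13.9%, 22.6% and 23.9% in the other genes, a mean difference of 39.8 ± 12.1 points (SD, n = 4, adjusted exact permutation p = 0.203). The comparison was chosen after the let-7 reads had been seen. WT A had the lowest let-7 share on both sides. Without the 3 actin genes and Actn1 the mean difference was 26.2 points, and with targets in coding sequence only it was 30.3 points (69.1% against 38.8%), each higher in 4 of 4 libraries. Within the long sense let-7 reads a seed match was found in 80.0%, 42.9%, 48.1% and 50.0%, against 28.9%, 37.4%, 37.8% and 30.1% in other genes, the WT A value resting on 10 reads. Without the 3 actin genes this difference turned to -5.38 points. The median target segment was 61, 69, 68 and 72 nt long, against 53, 58, 58 and 61 nt. A seed match of any listed miRNA was found in 33.5%, 34.0%, 32.1% and 36.2%, against 31.1%, 30%, 30.6% and 29.0%, and this difference of 3.79 points was -0.018 without the 3 actin genes. The median deposited minimum free energy, whose unit is not stated in the files, was -22.6, -23.7, -22.3 and -22.5 in library order against -23.5, -24.4, -24.3 and -23.9 in other genes, higher in 4 of 4 libraries by a mean of 1.25 ± 0.60 (SD, n = 4, adjusted exact permutation p = 0.203), and with coding targets only this difference was -0.16. The share of long sense reads, the share with a genome-contained miRNA segment, the order of miRNA and target in the read and the deposited score did not differ in the same direction in the 4 libraries.

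**Figure D4:**
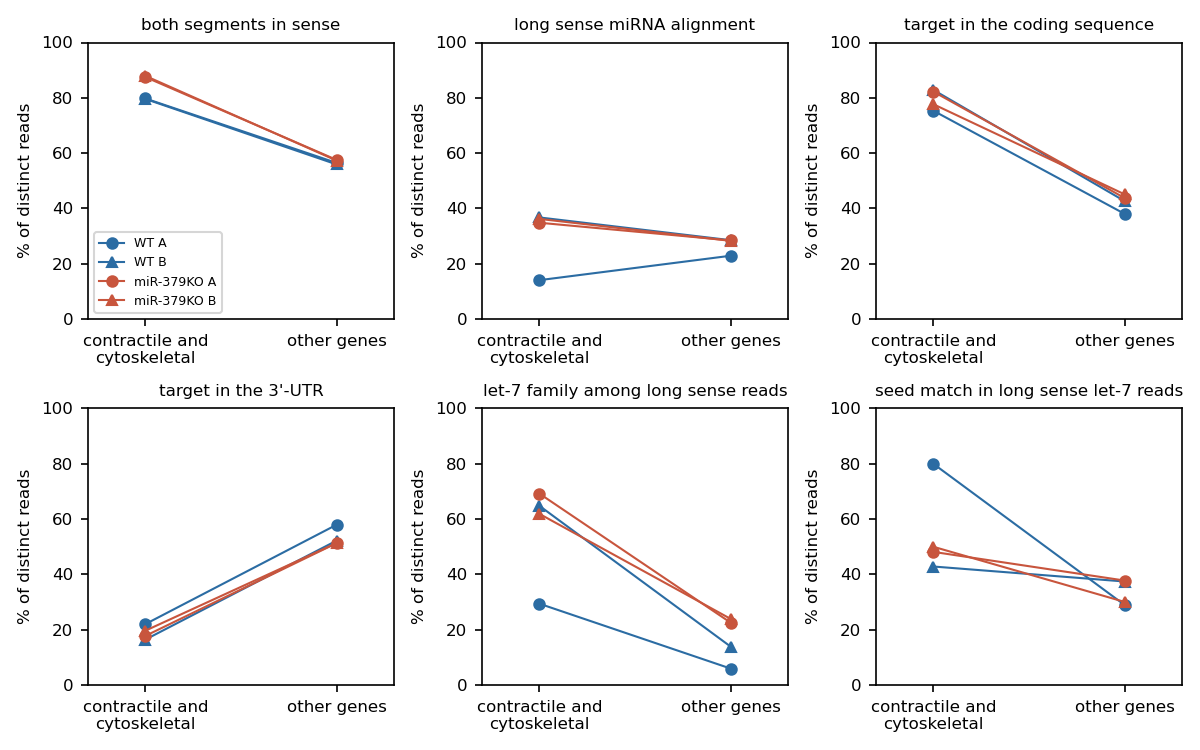
Share of distinct reads (y axis, percent) with each of 6 features in the contractile and cytoskeletal genes and in the other genes, 1 line per library, with WT in blue and miR-379KO in red. The lines of sense alignment, of coding sequence and of the let-7 share fall in all 4 libraries, the 3′-UTR line rises in all 4, and WT A goes against the others in the share of long sense alignments.

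Among all genes with long sense let-7 reads, which numbered 900 with 21 of the contractile and cytoskeletal genes, Actn1 ranked 7th with 29 reads, Acta2 8th with 21 and Actb 9th with 20, behind Gas5 (129 reads), Thbs1 (73 reads) and Fn1 (31 reads) among others. These ranks use reads summed over libraries, and 21 of the 29 Actn1 reads came from WT B. The abundance of each RNA was not analysed here.

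A wider list of 98 genes of the same pathways, from Arp2/3 and capping proteins to integrins, formins and microtubule proteins, held 183, 66, 77 and 68 reads in library order, or 112, 91.8, 122 and 105 per 10000. Of these, 71 genes had a read, 9 were tested and 0 passed, with 6 log2 fold changes above 0 and 3 below. Among those with the most reads were Arhgef2, a guanine nucleotide exchange factor (16, 13, 1 and 5 reads), the intermediate filament gene Nes (15, 3, 3 and 5 reads), the adhesion gene Tns1 (9, 2, 11 and 3 reads) and the zyxin relative Lpp (9, 2, 5 and 4 reads). The list had 128 long sense reads, of which 26 were let-7 reads.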

How the data were processed

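The authors merged read pairs, discarded with Bowtie2 2.1.0 whatever matched the mouse genome or its transcripts (GENCODE on GRCm38), and searched the rest on both strands with blastn against mature miRNAs and transcripts. The deposited count is the number of merged reads of 1 sequence, not normalized, and is repeated for each listed miRNA, gene and transcript. The score was deposited without naming its tool, and the deposited minimum free energy and alignment positions were used as given.

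Each read was counted 1 time per gene and library. Libraries held 6326 to 16324 chimeric reads, so 3 reads are 1.84 to 4.74 per 10000. The test of genes with at least 10 reads was edgeR's quasi-likelihood test (edgeR 4.0.16, R 4.3.3, TMM, Benjamini-Hochberg adjustment, threshold 0.05), which was tested on simulated data first. The standard error is the size of the log2 fold change over the square root of F. Shares and features were compared by exact permutation tests (scipy 1.17.1). Features used 1 alignment per distinct read, the longest sense one. Segments were relocated by exact search on GENCODE transcripts of GRCm38, since transcript versions differed. A miRNA segment was called genome-contained where it and its flanks in the read, 10 nt or fewer, matched GRCm38 exactly outside miRNA hairpins. Letters A and B were not taken to pair the libraries. The deviations of same-letter libraries correlated at -0.06 over 686 genes. With 2 libraries per genotype and low counts, this value cannot show whether same-letter libraries share a culture or preparation.

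The genes, gene lists and tests were chosen with earlier results of these data known. Values per library are given for every gene with at least 10 reads, and the sequence of each let-7 site found in at least 2 libraries. The alternatives tried were DESeq2 1.42.0, the letter as a replicate block, scaling by library totals, all genes with a read, distinct sequences, sense or exact alignments, reads listed with 1 gene, and leaving out each library. Leaving out the actins or Actn1, coding targets only, the let-7 features and the genome-contained share among long sense reads were added after seeing the data. 1 gene of the wider pathway list is not reported here by name.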

Additional observations from a re-analysis of the deposited data

How the results depend on the processing

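The count of 0 contractile and cytoskeletal genes past the threshold was the same under the 9 alternatives with all 4 libraries, the replicate block included. It was also 0 when each library was left out, but those fits set 1 library against 2 and assume that the lone library varies like those of the other genotype. Over all genes, 1 was called with long sense reads only, 1 with reads listed with 1 gene, and 0 to 4 when each library was left out, the 4 without WT B and none of them a contractile or cytoskeletal gene. The replicate block called 0 of 686 genes. The log2 fold change of Actn1 was -0.62 without WT B and up to 1.73 when other libraries were left out. The difference in the share of chimeric reads (WT minus miR-379KO, 1.80 per 10000) was -41.8 with long sense reads, -16.2 with sense reads of any length, -15.4 without ribosomal RNA-like and mitochondrial targets, and -56.1 to 59.7 when each library was left out. With the replicate block it was 1.80, from -69.6 for the A libraries and 73.2 for the B libraries.

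In percentage points, the share of long sense reads (members minus others, 3.43) was -3.17 against other genes without ribosomal RNA-like and mitochondrial ones, -0.079 without the actins and -3.04 without the actins and Actn1. When each library was left out it was 1.84 to 7.52, the highest without WT A. The seed match (3.79) was -0.018 without the actins and -1.82 with coding targets only. It was 2.03 with deposited read counts (2 of 4 libraries higher) and 1.72 with the target segment extended by 25 nt (3 of 4 higher). In let-7 reads (21.7) it was -5.38 without the actins, 5.29 without the actins and Actn1, 12.7 without Acta2 and 33.1 without Actn1. When each library was left out, it was 11.9 (without WT A) to 27.1. The genome-contained share (-2.36) was 0.76 without the actins, 2.86 without the actins and Actn1, and -4.54 to 0.27 without each library. Among long sense reads it (-1.04) was 0.38 with deposited read counts, 0.72 without the actins and Actn1, and -3.73 to 0.46 without each library. With coding targets only it was -5.94, with 0 of 4 libraries higher. Against other genes without ribosomal RNA-like and mitochondrial ones it was -3.24. The median score (-18.0) was -24.3 to 0.33 without each library, and the median energy (1.25) was -0.16 with coding targets only and 0.57 against other genes without ribosomal RNA-like and mitochondrial ones. The causes were not tested. The sense, coding sequence, 3′-UTR, let-7 and segment length differences kept their direction under every alternative run, but not always their size: the sense difference (26.9 points) was 16.1 against other genes without ribosomal RNA-like and mitochondrial ones and 7.36 with coding targets only, the let-7 difference (39.8) was 26.2 without the actins and Actn1, and the segment length difference (10 nt) was 4.25 nt with coding targets only. Counts of 1 to 9 reads per gene limit what these libraries can show.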
